A study of Mus musculus with 6 samples.

Results

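Complex I, NADH:ubiquinone oxidoreductase, is the entry enzyme of the mitochondrial respiratory chain, and the nuclear genes for its subunits and assembly factors were examined here in cultures labelled as mouse female germline stem cells (FGSCs). Members were the protein-coding genes with symbols starting with Ndufa, Ndufb, Ndufc, Ndufs, Ndufv, Ndufab or Ndufaf and a number, together with Ecsit, Acad9, Timmdc1, Tmem126b, Foxred1 and Nubpl. This gave 52 of the 55401 genes in the deposited table, of which 36 encode subunits, 14 encode assembly factors and 2 carry an Nduf name without being counted as complex I subunits. The rule reads gene names and no measured value, although the group was proposed with earlier results of these data known. An exception was a second protein-coding row named Ndufb8, which was at 0 FPKM in all libraries and was left out. RNA-seq was run on 3 control libraries and on 3 libraries from FGSCs given 1 μM metformin for 24 h. Both groups were C57BL/6 cells beyond passage 20, grown on inactivated STO feeder cells in medium with serum, LIF, EGF, bFGF and GDNF, and controls received no treatment. The labels do not say whether the 3 libraries of a group came from separate cultures, so p-values measure the spread between these libraries, which may be technical.

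Complex I passes electrons from NADH to ubiquinone and pumps protons across the inner mitochondrial membrane. Its core subunits carry the flavin, the iron-sulfur clusters and the proton channels, and are encoded in part by nuclear and in part by mitochondrial DNA. Accessory subunits surround the matrix arm and the membrane arm, and assembly factors help to build the enzyme without staying in it. Metformin, a biguanide given for type 2 diabetes, is known as an inhibitor of complex I at the level of the enzyme, and the comparison below asks whether the RNA of its genes differed between the groups.

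By the size of the step that 1 fragment makes in short single-exon genes, the libraries held an estimated 13400000 to 14100000 mapped fragments, so that 3 fragments on 1 kb of transcript are worth 0.213 to 0.224 FPKM (fragments per kilobase, scaled to library depth). These limits cover counting error only. Of 6 germ cell markers, 0 had a mean of at least 1 FPKM, and Dazl, Dppa3 and Pou5f1 were listed at 0 in all 6 libraries. The summed level of the 6 markers was 0.48 to 1.38 FPKM in controls and 0.33 to 0.93 FPKM with metformin, most of it from Ifitm3. Of 8 blood cell markers, 7 had a mean of at least 1 FPKM, and their summed level was 739 to 769 FPKM in controls and 718 to 743 FPKM with metformin. Of 8 fibroblast markers, 0 had a mean of at least 1 FPKM. Their summed level was 0.42 to 0.68 FPKM in controls and 0.48 to 0.59 FPKM with metformin. The study reports the same germ cell genes by RT-PCR in its FGSC line, and MVH, the protein of Ddx4, by immunofluorescence. RT-PCR products, protein staining and FPKM are different measures. In these libraries the marker levels do not match the germ cell label. The part of other cell types in the results below was not tested. In bulk RNA, fewer cells of a type and less RNA per cell cannot be told apart.

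Promoter sequences are shown first for 5 members, 4 of which had an unadjusted p under 0.05 in the comparison below and 1 of which, Timmdc1, held the letters of an ETS site most often. They are RefSeq windows of GRCm38.p6 from 250 bases before to 50 bases after the transcript start. Capitals mark the letters searched on both strands, and neighbouring matches may overlap. The core letters bound by factors of the ETS family were written as CCGGAAG. Those of nuclear respiratory factor 1 (NRF1) were written as GCATGCGC and those of YY1 as AAGATGGCG. Those of the TATA box, known to position the start of transcription at some promoters, were written as TATAAA. Ndufaf5 and Ndufaf4 hold NRF1 letters, Ndufs7 holds YY1 and TATA letters, Tmem126b holds YY1 letters and Timmdc1 holds ETS letters. The TATA letters of Ndufs7 begin at -99 from the transcript start, and whether they act as a TATA box was not tested. The windows are chr2:140170396-140170695 on the plus strand for Ndufaf5, chr4:24897833-24898132 on the plus strand for Ndufaf4, chr10:80249199-80249498 on the plus strand for Ndufs7, chr7:90475946-90476245 on the minus strand for Tmem126b and chr16:38522614-38522913 on the minus strand for Timmdc1.
Ndufaf5: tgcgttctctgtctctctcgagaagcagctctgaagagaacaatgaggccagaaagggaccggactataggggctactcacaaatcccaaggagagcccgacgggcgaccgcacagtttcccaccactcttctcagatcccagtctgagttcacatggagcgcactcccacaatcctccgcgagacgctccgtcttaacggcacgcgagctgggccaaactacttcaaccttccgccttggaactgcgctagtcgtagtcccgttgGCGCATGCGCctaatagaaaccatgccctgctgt
Ndufaf4: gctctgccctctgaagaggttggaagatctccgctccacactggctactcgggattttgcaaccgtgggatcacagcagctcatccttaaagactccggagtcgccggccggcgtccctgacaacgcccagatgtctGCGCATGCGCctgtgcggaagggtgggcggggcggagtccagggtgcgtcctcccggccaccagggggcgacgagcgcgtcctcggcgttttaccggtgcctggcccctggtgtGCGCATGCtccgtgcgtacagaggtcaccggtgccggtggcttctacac
Ndufs7: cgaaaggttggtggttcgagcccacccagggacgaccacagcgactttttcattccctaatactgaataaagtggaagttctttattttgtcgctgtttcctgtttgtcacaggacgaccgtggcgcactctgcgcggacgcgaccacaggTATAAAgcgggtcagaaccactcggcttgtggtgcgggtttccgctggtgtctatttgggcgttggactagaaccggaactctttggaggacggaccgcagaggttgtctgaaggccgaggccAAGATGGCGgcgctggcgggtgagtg
Tmem126b: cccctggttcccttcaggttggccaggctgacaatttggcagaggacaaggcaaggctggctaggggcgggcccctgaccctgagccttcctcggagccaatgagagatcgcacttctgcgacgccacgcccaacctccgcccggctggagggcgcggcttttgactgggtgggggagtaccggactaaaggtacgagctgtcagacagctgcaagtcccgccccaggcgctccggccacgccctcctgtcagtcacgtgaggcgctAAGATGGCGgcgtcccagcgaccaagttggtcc
Timmdc1: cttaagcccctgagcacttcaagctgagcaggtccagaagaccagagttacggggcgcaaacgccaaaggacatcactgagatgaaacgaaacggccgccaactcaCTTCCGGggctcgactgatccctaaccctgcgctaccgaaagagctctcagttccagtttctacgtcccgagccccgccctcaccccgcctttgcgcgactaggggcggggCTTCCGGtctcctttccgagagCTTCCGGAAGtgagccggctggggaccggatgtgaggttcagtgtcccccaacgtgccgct

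A promoter window was given for 45 members, with 47 windows in all. YY1 letters stood in 7 of these 47 windows (14.9%), against 3.59% of the 9661 windows of genes tested and 1.4% of all 32851 windows. The first base of the 7 YY1 matches lay 10 to 35 bases after the transcript start, with a median of 24, as in Ndufs7 and Tmem126b. NRF1 letters stood in 5 member windows (10.6%), against 5.97% of windows of genes tested and 2.71% of all windows. ETS letters stood in 8 member windows (17%), against 20.3% of windows of genes tested and 8.86% of all windows. TATA letters stood in 5 member windows (10.6%), all of them of subunits, against 6.26% of windows of genes tested and 13.6% of all windows. Overlapping windows of Ndufa7 share the same TATA site. Counted by gene, TATA letters were found for 4 members (8.89%), against 7.55% of genes tested and 15.7% of all genes with a window. The first base of the TATA matches lay at -235 to -52 from the transcript start, and those of Ndufa7 and Ndufb7 were on the minus strand of the window. For 24 members, among them Ndufa13, Ndufb10 and Ndufb3, none of the 4 motifs was found in the window. The member windows had a median GC content of 59.3%, close to the 61.3% of genes tested and above the 52.7% of all windows. These matches describe letters in a window and are not measured binding sites.

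Nearly all members were well expressed, and 51 of the 52 averaged 1 FPKM or more and entered the test. Subunits had a median level of 46.9 FPKM (5.29 to 95.8) and assembly factors a median of 9.84 FPKM (2.18 to 36.1). FPKM is a level per length, so genes can be set side by side. A mean of at least 10 FPKM was reached by 34 of 36 subunits and by 6 of 14 assembly factors. The means of 22 subunits lay above Ndufaf4, the most abundant assembly factor, and 2 assembly factors lay below Ndufb2, the least abundant subunit. The subunits covered an 18.1-fold range and the assembly factors a 16.6-fold range. The ratio of the subunit median to the assembly factor median was 4.22, 4.72 and 5.17 in the controls and 4.72, 4.49 and 4.52 with metformin. The metformin ratios thus lay within the range of the controls.

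**Figure D1:**
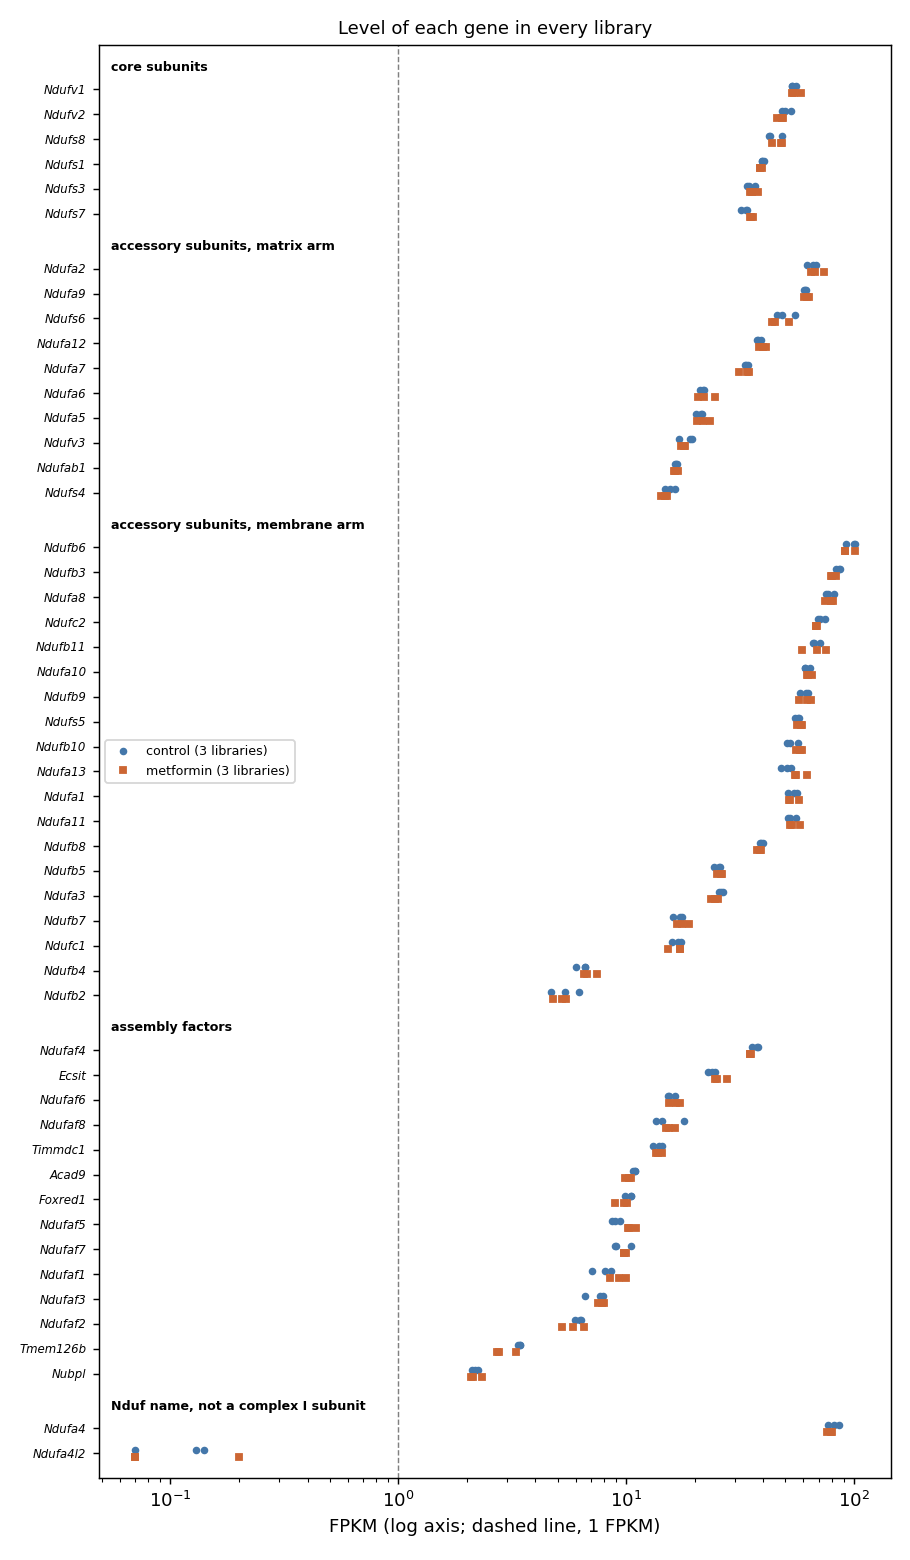
Level of the members in FPKM, on a log axis, with 1 point per library for 3 control and 3 metformin libraries, by role and in order of the mean within each role. Subunits lie mostly between 15 and 100 FPKM, most assembly factors lie lower, and Ndufa4l2 lies near the level of 1 fragment.

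Metformin was then compared with control across all 10661 genes averaging 1 FPKM or more, by limma on log2(FPKM + 1) with Benjamini-Hochberg adjustment. None of the 51 members tested passed an adjusted p of 0.05 in either direction. Over all genes, 3 were higher (0.0281%) and 0 were lower (0%). The lowest adjusted p of a member was 0.320, for Ndufaf5. At an unadjusted p under 0.05, 5 members (9.80%) were higher and 4 (7.84%) lower, against a background of 6.03% (643 genes) higher and 4.81% (513 genes) lower. With every library rescaled to the same FPKM sum, the split of members was 5 higher and 6 lower, and that of all genes was 568 higher and 584 lower. These small counts moved with single libraries. The lower members numbered 0 without control replicate 2 or metformin replicate 1 and 1 without metformin replicate 3, and the higher members numbered 3 without control replicate 1 or metformin replicate 1 and 2 without metformin replicate 2. Over all genes, with 1 library left out, 514 to 627 were higher and 393 to 508 lower. The groups did not overlap for 4 members that were higher (7.84%) and 6 that were lower (11.8%), against 8.89% and 8.1% of all genes tested. These shares lie within a few genes of the background.

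The fitted differences were small in both directions. Of the 51 members, 28 had a higher and 23 a lower mean with metformin on the log2 scale, with a median difference of 0.012 beside 0.0041 over all genes tested. The differences ran from -0.16 for Tmem126b to 0.20 for Ndufaf1, and 45 of 51 lay within 0.1 of 0 on this scale. The unadjusted 95% interval of the difference lay within 0.25 of 0, a 1.19-fold change, for 44 of 51 members, and within 0.5 of 0, a 1.41-fold change, for all 51. Intervals within 0.1 of 0 were reached by 6 subunits and 0 assembly factors. The widest bounds were 0.39 for Ndufaf1 and -0.33 for Tmem126b. Differences on the log2(FPKM + 1) scale understate the change of low genes such as Nubpl and Tmem126b.

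**Figure D2:**
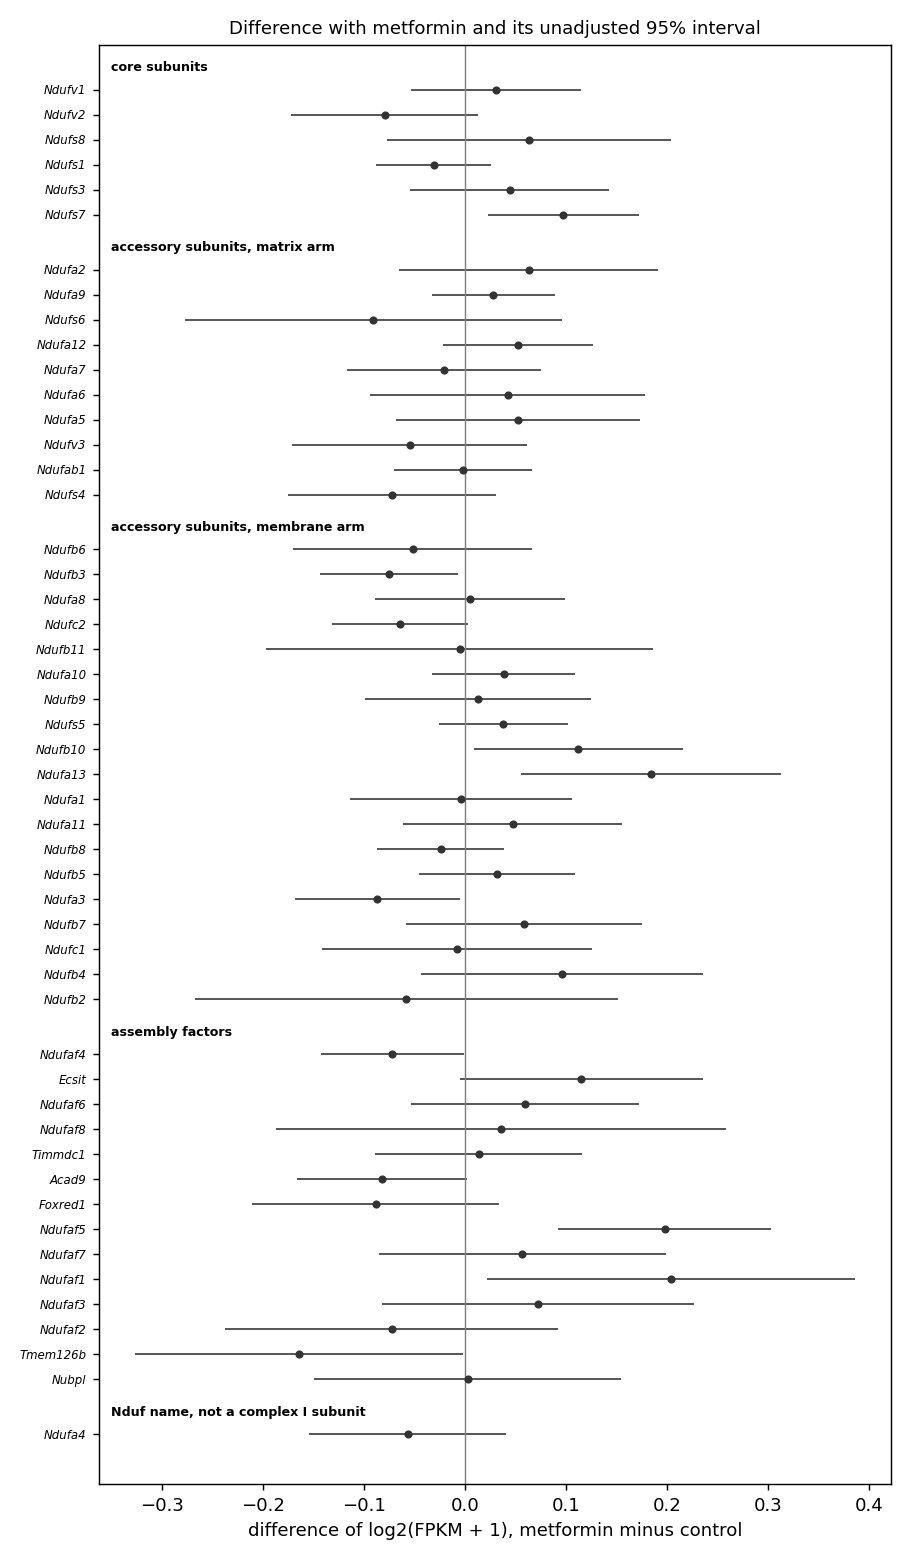
Difference of log2(FPKM + 1), metformin minus control, for members tested, as points with unadjusted 95% intervals from limma (3 libraries per group), by role. Most intervals cross 0, and those of assembly factors reach from -0.33 to 0.39.

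Among the 7 nuclear core subunits, 4 had a higher and 3 a lower mean with metformin, with a median difference of 0.031 on the log2 scale. Ndufv1, which binds NADH and the flavin (chromosome 19, 4007384 to 4012806, minus strand), had 53.6, 53.5 and 55.5 FPKM in controls and 58.2, 53.6 and 54.5 FPKM with metformin. The first metformin library was the highest of the 6 and the others lay among the controls (log2 difference 0.031, SE 0.036, limma adjusted p = 0.793). Without metformin replicate 1 the difference was -0.0046. Ndufv2, an iron-sulfur partner of Ndufv1 (chromosome 17, 66078638 to 66101559, minus strand), had 48.5, 53.1 and 49.9 FPKM in controls and 48.9, 46.1 and 48.1 FPKM with metformin. The lowest control lay below the highest metformin library (log2 difference -0.080, SE 0.039, limma adjusted p = 0.518), and without control replicate 2 the difference was -0.044.

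Ndufs1, the largest iron-sulfur subunit (chromosome 1, 63143596 to 63176833, minus strand), had 39.5, 40.4 and 39.5 FPKM in controls and 38.7, 38.6 and 39.4 FPKM with metformin. All metformin values lay below all control values, but the gap was small and the log2 difference was -0.031 (SE 0.024, limma adjusted p = 0.678). Its first 9 bases are shared with Eef1b2 on the opposite strand, at a mean of 295 FPKM. Ndufs8, an iron-sulfur subunit near the ubiquinone site (chromosome 19, 3908863 to 3912774, minus strand), had 42.3, 42.8 and 48.5 FPKM in controls and 43.7, 47.7 and 48.2 FPKM with metformin, which overlap (log2 difference 0.063, SE 0.060, limma adjusted p = 0.738). With 1 library left out, its difference ran from 0.029, without control replicate 1, to 0.12, without control replicate 3. Ndufs3, a core subunit without a cluster (chromosome 2, 90894634 to 90904827, minus strand), had 34.0, 34.6 and 36.9 FPKM in controls and 35.8, 35.1 and 38.0 FPKM with metformin, which also overlap (log2 difference 0.044, SE 0.042, limma adjusted p = 0.740). Its difference ran from 0.011, without metformin replicate 3, to 0.078, without control replicate 3.

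Ndufs7, which holds the last iron-sulfur cluster before ubiquinone (chromosome 10, 80249121 to 80256794, plus strand), had the smallest p of the core subunits. Its level was 31.9, 33.9 and 33.5 FPKM in controls and 35.0, 36.2 and 35.2 FPKM with metformin, so every metformin library was above every control. The means were 33.1 ± 1.08 and 35.5 ± 0.656 FPKM (SD, n = 3 each). The log2 difference was 0.097 (SE 0.032, 95% interval 0.023 to 0.172), with an unadjusted p of 0.0176 and an adjusted p of 0.377 by limma, and it did not pass. A two-sided exact permutation test of 3 libraries against 3 gave 0.1, the smallest p this design allows, for this gene and for each other member without overlap.

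The 10 accessory subunits of the matrix arm had levels of 15.2 to 67.2 FPKM. Of these, 5 had a higher and 5 a lower mean with metformin, with a median log2 difference of 0.012. An unadjusted p under 0.05 was reached by 0 of 10, against 6.03% higher and 4.81% lower of all genes tested. Ndufa2, the most abundant of them, had 66.3, 62.5 and 68.4 FPKM in controls and 74.1, 64.7 and 67.4 FPKM with metformin, and the groups overlapped (limma adjusted p = 0.713). Ndufs4, the loss of which gives a mouse model of Leigh syndrome, was the least abundant, with 15.5, 14.9 and 16.4 FPKM in controls and 15.2, 14.9 and 14.3 FPKM with metformin (limma adjusted p = 0.580). The groups overlapped here too. Ndufa12 had a mean of 39.0 FPKM, below the 74.5 FPKM of its pseudogene Ndufa12-ps, which is not a member. How reads shared by this pair were assigned is not given in the sources used here, so the level of Ndufa12 is uncertain.

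The 19 accessory subunits of the membrane arm had levels of 5.29 to 95.8 FPKM, and 10 had a higher and 9 a lower mean with metformin, with a median log2 difference of 0.0048. Ndufb6 was the most abundant, with 100.3, 91.9 and 100.5 FPKM in controls and 90.8, 91.0 and 100.5 FPKM with metformin (limma adjusted p = 0.742). Ndufb2 was the least abundant, with 5.38, 4.70 and 6.21 FPKM in controls and 5.43, 4.79 and 5.24 FPKM with metformin (limma adjusted p = 0.854). For Ndufb6, 2 metformin libraries lay just below the lowest control and the third was level with the highest, and for Ndufb2 all 3 metformin values lay within the range of the controls. The next lowest, Ndufb4, had a mean of 6.66 FPKM, and the related Ndufb4c, a pseudogene in GENCODE M1 but protein-coding in RefSeq, had 5.20 FPKM, so that the level of Ndufb4 is uncertain in the same way. Ndufb4c was not counted as a member, by its GENCODE class, and was at 6.12, 4.83 and 6.05 FPKM in controls and 3.65, 4.77 and 5.76 FPKM with metformin (log2 difference -0.23, SE 0.14, limma adjusted p = 0.587), with overlapping groups.

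Ndufa13, also called GRIM-19 and linked to cell death (chromosome 8, 69894180 to 69902558, minus strand), had the largest difference of any subunit. It was at 47.9, 50.8 and 52.9 FPKM in controls and at 62.1, 55.6 and 55.1 FPKM with metformin, so the groups did not overlap and the first metformin library was the highest. The means were 50.6 ± 2.51 and 57.6 ± 3.93 FPKM (SD, n = 3 each). The log2 difference was 0.18 (SE 0.055, 95% interval 0.055 to 0.31), with an unadjusted p of 0.0116 and an adjusted p of 0.359 by limma. Yjefn3, at a mean of 1.82 FPKM, overlaps the whole gene on the same strand, and Tssk6, at 4.59 FPKM, overlaps 375 bp of it on the other strand. Their part in the value was not tested.

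A further 3 accessory subunits of the membrane arm had an unadjusted p under 0.05. With Ndufa13 this gave 2 higher and 2 lower of 19, against 6.03% higher and 4.81% lower of all genes tested. Ndufb10 (chromosome 17, 24722060 to 24724478, minus strand) had 52.4, 56.8 and 50.7 FPKM in controls and 58.2, 58.9 and 55.8 FPKM with metformin, with an overlap between the second control and the third metformin library (log2 difference 0.11, SE 0.044, limma adjusted p = 0.433). Ndufb3 (chromosome 1, 58586384 to 58595964, plus strand) had 87.0, 86.2 and 83.0 FPKM in controls and 79.3, 80.4 and 83.4 FPKM with metformin, with the third metformin library above the third control (log2 difference -0.075, SE 0.029, limma adjusted p = 0.423). Ndufa3 (chromosome 7, 3617373 to 3620327, plus strand) had 25.6, 26.0 and 26.7 FPKM in controls and 24.5, 25.4 and 23.6 FPKM with metformin, without overlap (log2 difference -0.087, SE 0.035, limma adjusted p = 0.439). Ndufc2 was also lower without overlap, at 71.6 against 68.4 FPKM in the mean (log2 difference -0.065, limma adjusted p = 0.472). Of all genes tested, 8.89% were higher and 8.1% lower without overlap. Subunits of one arm were found on both sides of 0, as were the genes tested, with 5580 higher and 5081 lower means.

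**Figure D3:**
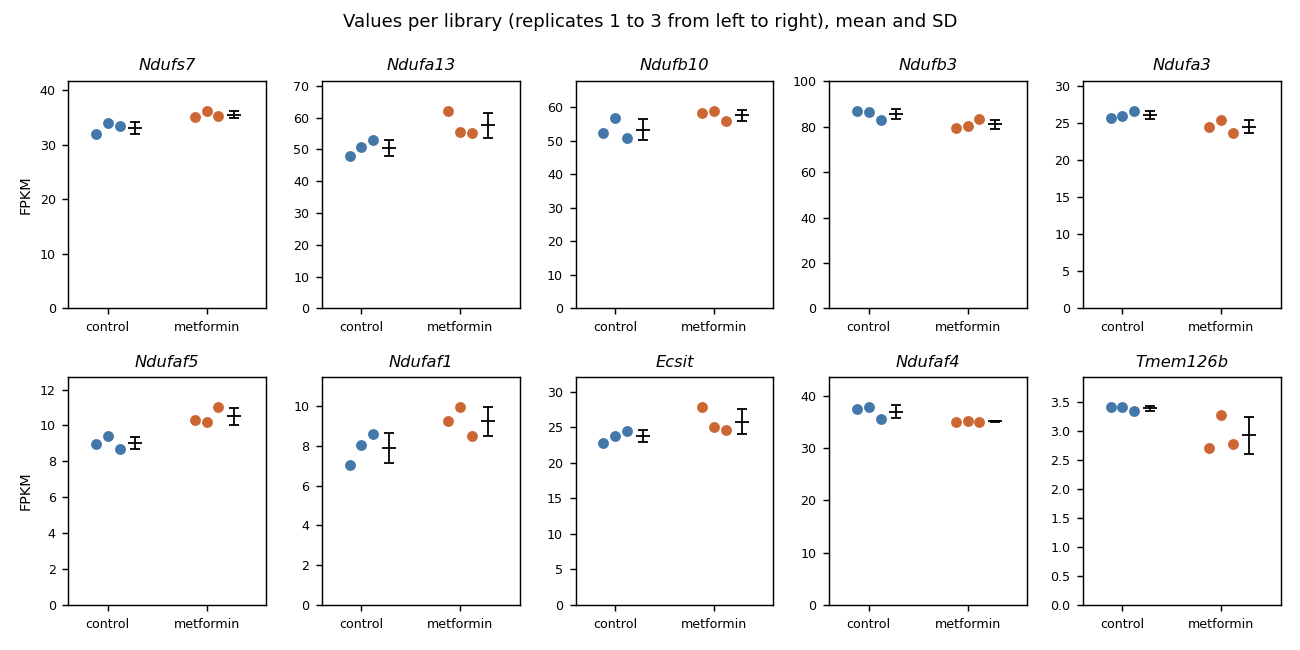
FPKM in each of 3 control and 3 metformin libraries for the 9 members with an unadjusted p under 0.05 and Ecsit, on linear axes from 0, with the mean and SD of each group in black. The largest relative gaps are those of Ndufaf5, Ndufaf1, Ndufa13 and Tmem126b, and none of the 10 passed an adjusted p of 0.05.

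The 14 assembly factors held the smallest p of the members, for Ndufaf5, and the highest and lowest differences, for Ndufaf1 and Tmem126b. The difference of the subunit Ndufa13, at 0.18, was larger in size than that of Tmem126b. Assembly factors had a median SE of 0.056, against 0.043 for subunits. A higher mean with metformin was seen for 9 and a lower mean for 5, with a median log2 difference of 0.024, which is 0.016 above that of the subunits. With control replicate 1, 2 or 3 or metformin replicate 3 left out, the assembly factor median lay below that of the subunits instead, and without control replicate 2 it was -0.0025. Ndufaf5, which hydroxylates an arginine of Ndufs7 (chromosome 2, 140170649 to 140203689, plus strand), was at 8.97, 9.40 and 8.71 FPKM in controls and at 10.3, 10.2 and 11.0 FPKM with metformin. Every metformin library was above every control, with means of 9.03 ± 0.348 and 10.5 ± 0.452 FPKM (SD, n = 3 each). The log2 difference was 0.20 (SE 0.045, 95% interval 0.092 to 0.30), with an unadjusted p of 0.00288 and an adjusted p of 0.320 by limma, which did not pass. It ranked 93 among the 10661 genes by p, and its NRF1 letters lie in the promoter shown above. Ndufs7, its substrate, was the core subunit with the smallest p and did not pass either. A link between these genes was not tested.

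The mitochondrial complex I intermediate assembly (MCIA) factors build the membrane arm, and with Timmdc1 they gave 3 higher and 2 lower means among 5 genes. Ndufaf1 (chromosome 2, 119655446 to 119662827, minus strand) was at 7.06, 8.06 and 8.58 FPKM in controls and at 9.26, 9.96 and 8.50 FPKM with metformin. The third metformin library lay just below the highest control, and the log2 difference was 0.20 (SE 0.077, 95% interval 0.022 to 0.39, limma adjusted p = 0.423). With control replicate 1 left out the difference was 0.13. Ecsit, which also acts in Toll-like receptor signalling (chromosome 9, 22072246 to 22085438, minus strand), was at 22.8, 23.8 and 24.5 FPKM in controls and at 27.8, 25.0 and 24.6 FPKM with metformin. The groups did not overlap but met closely, and with metformin replicate 1 left out the log2 difference went from 0.12 to 0.061 (limma adjusted p = 0.474 with all 6 libraries).

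Tmem126b, a membrane protein of the same complex (chromosome 7, 90467438 to 90476001, minus strand), was at 3.42, 3.42 and 3.35 FPKM in controls and at 2.72, 3.29 and 2.78 FPKM with metformin. All metformin values lay below all controls, the second of them by little. The log2 difference was -0.16 (SE 0.069, 95% interval -0.33 to -0.0025, limma adjusted p = 0.456). Acad9, an acyl-CoA dehydrogenase that serves in the complex, had means of 10.9 FPKM in controls and 10.2 FPKM with metformin, without overlap (log2 difference -0.082, limma adjusted p = 0.470). Members of 1 assembly complex had differences of both signs, and none passed an adjusted p of 0.05. Over all genes tested, 5580 had a higher and 5081 a lower mean.

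Ndufaf4, which with Ndufaf3 helps to build the part of the matrix arm near ubiquinone (chromosome 4, 24898083 to 24905001, plus strand), was at 37.6, 37.9 and 35.6 FPKM in controls and at 35.1, 35.2 and 35.1 FPKM with metformin. The groups did not overlap, and the log2 difference was -0.072 (SE 0.030, limma adjusted p = 0.455). Its promoter holds NRF1 letters. Those of Ndufaf5, Ndufa11, Ndufa6 and Ndufa8 do too, and their log2 differences were 0.20, 0.047, 0.042 and 0.0048. None of these genes passed, and control by NRF1 was not tested. Nubpl, which delivers iron-sulfur clusters to complex I, was the least abundant factor, at 2.11, 2.24 and 2.17 FPKM in controls and 2.09, 2.12 and 2.33 FPKM with metformin. Its log2 difference was 0.0024 (limma adjusted p = 0.995), and the sign turned when libraries were scaled to the same sum or by quantiles. Foxred1 lies wholly under Srpr, a gene on the opposite strand at a mean of 46.0 FPKM, and its mean of 9.93 FPKM is uncertain if reads were counted without regard to strand. In all, 15 members overlap another gene with a mean of at least 1 FPKM.

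Of the 2 genes with an Nduf name that are not counted as complex I subunits, Ndufa4, now known as a component of complex IV, was at 76.9, 85.7 and 81.7 FPKM in controls and 75.8, 79.1 and 79.6 FPKM with metformin (limma adjusted p = 0.656). Its groups overlapped. Ndufa4l2, a paralog known to be induced in hypoxia, was listed at 0.14, 0.07 and 0.13 FPKM in controls and 0.07, 0.20 and 0.07 FPKM with metformin, which is under the level of 3 fragments on 1 kb. A difference in Ndufa4l2 was not detectable at this depth.

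**Figure D4:**
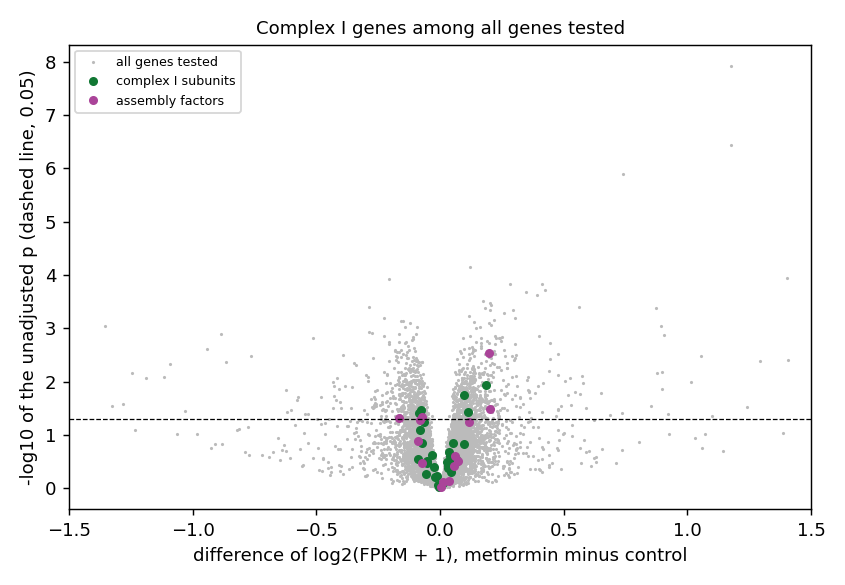
Difference of log2(FPKM + 1), metformin minus control, against -log10 of the unadjusted limma p for the 10661 genes tested, with complex I subunits and assembly factors in colour and a dashed line at 0.05. The members lie between -0.16 and 0.20 on the horizontal axis.

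Summed over the 36 subunits, the level was 1598, 1610 and 1617 FPKM in controls and 1641, 1603 and 1610 FPKM with metformin. Summed over the 14 assembly factors it was 171.3, 171.5 and 173.9 FPKM in controls and 174.6, 176.4 and 174.3 FPKM with metformin. The subunit sums overlapped between the groups, whereas the assembly factor sums as deposited did not, the nearest pair being 173.9 and 174.3 FPKM. With every library rescaled to the same FPKM sum, a comparison added after seeing the data, they overlapped, the first metformin library being at 173.7 and the highest control at 174.0 FPKM. No test was made on these sums.

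**Figure D5:**
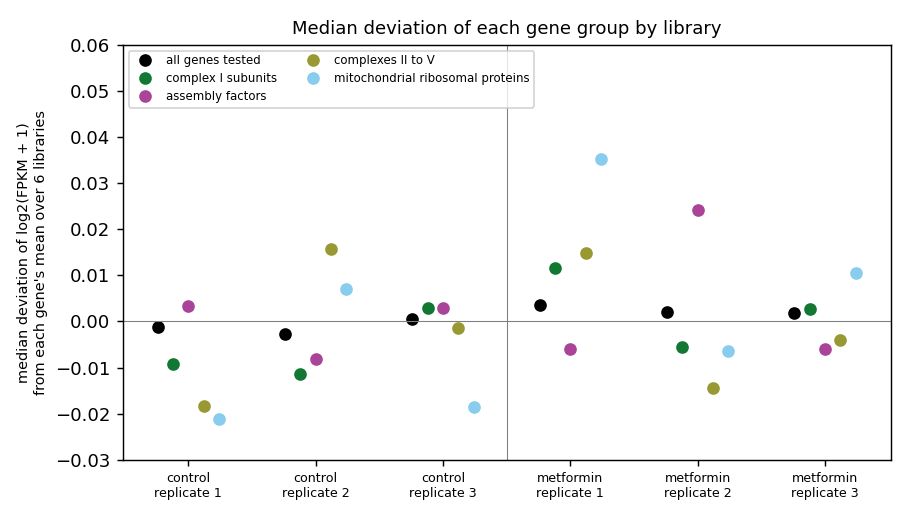
Median deviation of log2(FPKM + 1) from each gene's mean over the 6 libraries, with 1 point per gene group in each library. All medians lie within 0.036 of 0, and those of complex I subunits lie between -0.011 and 0.012.

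The other nuclear subunits of the respiratory chain and ATP synthase also gave 0 calls. Over all genes tested, 5580 had a higher and 5081 a lower mean, and 6.03% were higher and 4.81% lower at an unadjusted p under 0.05. Of 39 subunits of complexes II to V, 21 had a higher and 18 a lower mean with metformin, with a median log2 difference of 0.0039, and 0 passed an adjusted p of 0.05 by limma. At an unadjusted p under 0.05, 2 were higher and 2 lower. Their median level was 89.1 FPKM, above the 46.9 FPKM of complex I subunits. Of these, Cox7a2, a complex IV subunit, was at 93.1 FPKM in controls and 85.0 FPKM with metformin (limma adjusted p = 0.320), and Cox4i1, of the same complex, was at 235 and 249 FPKM (limma adjusted p = 0.350). Of 74 mitochondrial ribosomal proteins, 50 had a higher and 24 a lower mean, with a median log2 difference of 0.034, and 0 passed by limma. At an unadjusted p under 0.05, 7 of them were higher and 3 lower. Of the 7 mitochondrially encoded complex I subunits 0 passed, 2 were lower at an unadjusted p under 0.05, and the median log2 difference was -0.036.

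Other genes of complex I assembly and of cluster supply also gave 0 calls by limma, and their small counts stand against the same 6.03% higher and 4.81% lower at an unadjusted p under 0.05 over all genes. Of 8 further assembly genes, 3 had a higher and 5 a lower mean, and 2 were lower at an unadjusted p under 0.05. These were Lyrm2, at 7.47 and 6.67 FPKM (log2 difference -0.14, limma adjusted p = 0.377), and Dmac2, at 8.61 and 7.74 FPKM (log2 difference -0.14, limma adjusted p = 0.439). Of 14 iron-sulfur cluster genes tested, 10 had a higher and 4 a lower mean, with 2 higher and 1 lower at an unadjusted p under 0.05. Lyrm4, a partner of the cysteine desulfurase, was at 3.74 FPKM in controls and 4.74 FPKM with metformin (log2 difference 0.27, limma adjusted p = 0.376). Bola3, a late cluster transfer factor, was at 8.68 and 10.2 FPKM (limma adjusted p = 0.390).

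Of 8 regulators of respiratory genes tested, 4 had a higher and 4 a lower mean, and 0 passed by limma, with 1 lower at an unadjusted p under 0.05, against 4.81% of all genes. This was Gabpa, an ETS factor known to bind promoters of respiratory genes, at 21.6 FPKM in controls and 20.2 FPKM with metformin (log2 difference -0.091, limma adjusted p = 0.423). Ppargc1a, a coactivator of mitochondrial biogenesis, was at or under 0.02 FPKM in every library and was not tested.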

How the data were processed

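RNA-seq was made from 3 control and 3 metformin libraries of cultures labelled FGSCs. The authors deposited 1 table of FPKM, already normalized for length and depth, with 55401 genes under Ensembl identifiers. The submitters' processing notes name HISAT2, DESeq2 and mm9 without versions or roles. Gene positions of all 52 members overlap their RefSeq positions on GRCm38.p6, and 4 overlap their mm9 positions, so positions are given as GRCm38. The labels name a stranded library kit and the study's methods another kit, and whether counting used strand is not given in the sources used here. All 6 columns of values were used and 0 were left unused.

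Symbols came from GENCODE M1 identifiers (32589 genes), and 5 members were renamed through RefSeq synonyms. Ndufb1 had no match by identifier and was not counted, although the table holds a gene without a symbol at its RefSeq position (ENSMUSG00000113902, chromosome 12, 101968090 to 101977068), at 13.5, 16.0 and 13.9 FPKM in controls and 14.8, 13.0 and 14.1 FPKM with metformin. Groups were compared with limma 3.58.1 (R 4.3.3, lmFit and eBayes with trend, two-sided, no block) on log2(FPKM + 1), for 10661 genes averaging 1 FPKM or more over the 6 libraries, with Benjamini-Hochberg adjustment over all of them and a threshold of 0.05. Depth was estimated from 351 to 392 values per library of single-exon genes under 400 bp, 100% of which came within 0.1 of whole fragments. FPKM gives no counts for longer genes, so no count test was run.

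The members and lists were chosen with earlier results of these data known. Genes named with all values were core subunits, the most and least abundant member of each role, the members with an unadjusted p under 0.05, the 5 with the largest differences, those under 1 FPKM, and Ndufa4. Values of some of these genes are not reported here. From other lists up to 3 genes with an unadjusted p under 0.05 were named. Ndufc2, Acad9, Ndufa12, Ndufb4 and Foxred1 were added after their values were seen. Alternatives were a pseudocount of 0.1, no filter, a mean of at least 10 FPKM, rescaling to the same sum (TPM), quantile normalization, median centring, no trend, a replicate block and leaving out each library. The fit was tested on simulated data, with no outcome reported here. Figures were drawn with matplotlib 3.10.9.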

Additional observations from a re-analysis of the deposited data

How the results depend on the processing

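In none of the 14 alternatives did a complex I member pass an adjusted p of 0.05 by limma, and the lowest adjusted p of a member ran from 0.239 to 0.485 over them. At an unadjusted p under 0.05 the members called ranged from 2 to 6 higher and from 0 to 6 lower. In the same fits, of 5096 to 22809 genes tested, 400 to 894 were higher and 325 to 751 lower. At an adjusted p under 0.05, the count of lower genes over all genes was 3 with no filter. It was 0 to 1 with single libraries left out (1 without control replicate 3 or metformin replicate 3). With 1 library left out, the median log2 difference ran from 0.0049 to 0.0217 for subunits, from -0.0025 to 0.0325 for assembly factors, and from -0.0276 to 0.0224 for subunits minus assembly factors. Rescaling to the same sum gave a subunit median of 0.0041 and quantile normalization one of 0.0011, against 0.0086 as reported, and all-gene medians of 0.00013 and -0.0013. The subunit median minus the assembly factor median thus has no stable sign. Of the named members, Nubpl turned in sign with rescaling to the same sum (-0.00067), with quantile normalization (-0.010), without control replicate 1 (-0.012) and without metformin replicate 3 (-0.031). Ndufb2 turned to 0.028 without control replicate 3 and Ndufv1 to -0.0046 without metformin replicate 1. With single libraries left out, Ndufb2 ran from -0.142 to 0.028, Ndufv1 from -0.0046 to 0.054 and Nubpl from -0.031 to 0.023. With 1 library left out, differences also moved by over 1.5 times for Ndufa2 (0.0078 to 0.10), Ndufb6 (-0.10 to -0.028), Ndufs4 (-0.11 to -0.038), Ndufs1 (-0.040 to -0.020) and Ndufa4 (-0.097 to -0.020). The cause was not tested. The log2 difference of Ndufaf5 kept its sign, at 0.17 to 0.22, in each alternative that tested it. A mean of at least 10 FPKM leaves 41 of the 51 members, without Ndufaf5, Ndufaf1, Ndufaf2, Ndufaf3, Ndufaf7, Foxred1, Tmem126b, Nubpl, Ndufb2 and Ndufb4.

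No pairing of the libraries by replicate number was seen. Deviations of same-numbered libraries correlated at -0.032, 0.018 and 0.048, against -0.050 to 0.030 for differently numbered ones. The labels name no shared culture or day, so whether same-numbered libraries shared either is not known. With the replicate block 2 genes were higher and 0 lower over all genes, 0 members passed, and 5 members were higher and 0 lower at an unadjusted p under 0.05, beside 578 higher and 451 lower of all 10661 genes.

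With 3 libraries per group, single members have 95% intervals that reach up to 0.39 on the log2 scale, and FPKM of low genes rests on few fragments.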
